A study of Homo sapiens with 4 samples.

Results

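The 3′ part of 28S rRNA, taken as every scored 28S position above 3400, holds 38 of the 108 rRNA positions whose 2′-O-methylation was scored in HAP1 cells. The members were chosen by position alone, and the stretch contains the peptidyl transferase centre, where the ribosome joins amino acids. HAP1 is a near-haploid human line of leukaemic origin, and total RNA of each sample went into 1 RiboMethSeq library. The groups were PAF49deltaIDR-GFP, PAF49delta1/2IDR-GFP, PAF49-GFP and PAF49, with 1 library in each. PAF49, the product of POLR1G, is a subunit of RNA polymerase I, the enzyme that transcribes the rRNA precursor. GFP is a fluorescent tag, and IDR stands in the series title for a protein segment that lacks a stable fold. The labels name no deletion for PAF49-GFP and PAF49, which are treated here as full-length. They do not give the residues removed, the promoter of the constructs, whether a line is 1 clone, or whether endogenous PAF49 was still made.

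A methyl group on the ribose 2′ oxygen stiffens RNA and blocks alkaline cleavage of the next bond. RiboMethSeq reads that protection as a shortage of fragment ends. In human nucleoli most of these groups are placed by the enzyme fibrillarin within box C/D small nucleolar ribonucleoproteins. The guide RNA of each particle, a SNORD, pairs with the rRNA around the target, and the target is the nucleotide paired to the fifth base before the D box of the guide. The methyl groups of large-subunit rRNA cluster in and around the peptidyl transferase centre and the tRNA sites. For 30 of the 38 members a guide is named below from general knowledge, and all 30 symbols are listed as snoRNA genes in the RefSeq table of GRCh38.p14. These guides were not measured. Each name gives the nucleotide and its position as deposited (28S-Gm4618 is a 2′-O-methylated guanosine).

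The value of each site is a MethScore, a number from 0 to 1 that is higher where protection is stronger. Read counts and coverage are not in the table used here, so the depth behind a score is unknown and no interval or counting error can be given. Every comparison below sets 1 library against 1 library, with no replicate check and no test. The range of a site is its highest minus its lowest score over the 4 libraries. A mean over the 4 libraries places a site on the scale and is no estimate for a condition. Over the members, the median score was 0.914 in PAF49deltaIDR-GFP, 0.928 in PAF49delta1/2IDR-GFP, 0.914 in PAF49-GFP and 0.917 in PAF49. The first scored position inside the limit, 28S-Cm3701, had a mean of 0.921, and the last one outside it, 28S-Gm2876, had a mean of 0.607. RefSeq lists 5 copies of the 28S gene, 5054 to 5077 nt long, and the members run from 3701 to 4637 on the deposited numbering. Their sequences were not analysed here.

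Most members scored near the top of the scale. At 21 of the 38 sites (55.3%) every library scored 0.9 or above, beside 53 of 108 sites (49.1%) in the whole series, 23 of 39 (59.0%) in 18S rRNA and 9 of 29 (31.0%) in the 28S positions to 3400. At 13 sites (34.2%, beside 35.2% of all sites) every library scored under 0.9, and at the remaining 4 the libraries lay on both sides of that level. By mean score, 23 members lay at 0.9 or above, 14 from 0.5 to 0.9 and 1, 28S-Am3867, under 0.5, beside 59, 44 and 5 of all 108 sites. The members comprised 14 guanosines, 10 adenosines, 8 cytidines and 6 uridines, with median mean scores of 0.918, 0.90, 0.920 and 0.932 in that order. The same medians over all sites of the series were 0.90, 0.935, 0.881 and 0.892.

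**Figure D1:**
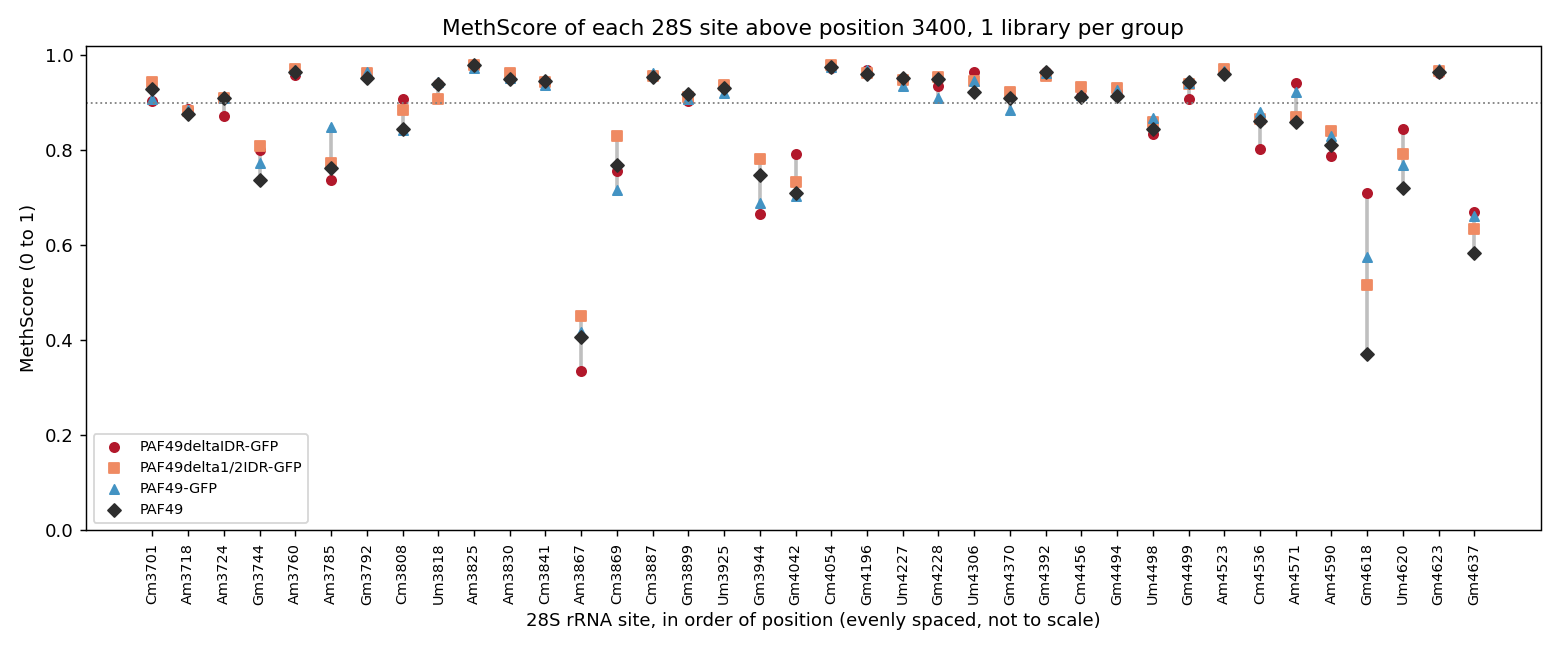
MethScore (0 to 1) of each of the 38 members in order of position, with 1 symbol per library and a grey bar for the range over the 4 libraries. The dotted line marks 0.9, which all libraries reach at 21 sites; 28S-Am3867 (mean 0.403) and 28S-Gm4618 (mean 0.543) lie lowest, and 28S-Gm4618 has the longest bar (0.338).

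28S-Am3825, a site of the guide SNORD30, had the highest mean, 0.977. It scored 0.976 in PAF49deltaIDR-GFP, 0.980 in PAF49delta1/2IDR-GFP, 0.974 in PAF49-GFP and 0.979 in PAF49. The second was 28S-Cm4054, a SNORD75 site, with 0.973 in PAF49deltaIDR-GFP, 0.980 in PAF49delta1/2IDR-GFP, 0.977 in PAF49-GFP and 0.975 in PAF49. Every library scored these 2 sites above every score of the other 36 members, of which the highest was 0.972. 28S-Am4523, the SNORD29 site, came next by mean with 0.968 in PAF49deltaIDR-GFP, 0.972 in PAF49delta1/2IDR-GFP, 0.967 in PAF49-GFP and 0.962 in PAF49. The step from 28S-Cm4054 to 28S-Am4523 was the only one of the 37 steps in the order of means at which the libraries of the neighbouring sites did not overlap. By this overlap, which sets scores of different libraries against each other, the order below it is not resolved from one site to the next. A step can still hold inside every library: 28S-Um4498 stood above the next site, 28S-Am4590, in each.

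The most stable members were 28S-Am3825, 28S-Cm4054 and 28S-Gm4196, with ranges of 0.00536, 0.00661 and 0.00774. The last of these is guided by SNORD31 and lies in the P loop, which holds the end of the peptidyl-site tRNA. 28S-Gm4196 scored 0.970 in PAF49deltaIDR-GFP, 0.963 in PAF49delta1/2IDR-GFP, 0.969 in PAF49-GFP and 0.962 in PAF49. Ranges of under 0.02 were found at 16 members (42.1%, beside 40.7% of all sites). Among these were 28S-Cm3887 of SNORD47 (mean 0.959, range 0.00783), 28S-Cm3841 of SNORD74 (mean 0.944, range 0.00787), 28S-Gm4392 of SNORD1 (mean 0.962, range 0.00986) and 28S-Am3760 of SNORD46 (mean 0.966, range 0.0130). Also in this group were 28S-Um3925 of SNORD52 (mean 0.931, range 0.0174) and 28S-Gm3899 (mean 0.911, range 0.0163). The other high members outside the runs described below had means from 0.908 to 0.945: 28S-Cm3701 of SNORD88 with a range of 0.0391, 28S-Um4306 of SNORD41 with 0.0429, 28S-Gm4370 of SNORD60 with 0.0392, and 28S-Cm4456 of SNORD49 with 0.0208.

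Stability followed level. The median range was 0.0163 over the 23 members with a mean of 0.9 or above and 0.0846 over the 14 from 0.5 to 0.9, and 28S-Am3867 had 0.117. No member with a mean of 0.9 or above had a range of 0.05. A score near 1 has little room to vary, so this pattern does not show that high sites are methylated more steadily. Of the 14 members from 0.5 to 0.9, 12 had a range of 0.05 or more. 28S-Um4498 had 0.0337, within the span of the high members, which reached 0.0444. The most stable partial site was 28S-Am3718, a SNORD37 site, with a range of 0.0107, under the median of the high members. It scored 0.887 in PAF49deltaIDR-GFP, 0.882 in PAF49delta1/2IDR-GFP, 0.884 in PAF49-GFP and 0.877 in PAF49.

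A range of 0.05 or more was found at 13 of the 38 members (34.2%), beside 30.6% of all sites, and a range of 0.1 or more at 6 members (15.8%), beside 11.1% of all sites. The median range was 0.0354 over the members and 0.0295 over all sites. Among the 13 wider members, PAF49deltaIDR-GFP was the highest library at 6 and the lowest at 5. PAF49delta1/2IDR-GFP was the highest at 5 and the lowest at 0, PAF49-GFP the highest at 2 and the lowest at 3, and PAF49 the highest at 0 and the lowest at 5. PAF49deltaIDR-GFP thus held an extreme at 11 of these 13 members, and at 14 of the 20 sites of that range in the rest of the series. Without PAF49deltaIDR-GFP 2 of the 6 ranges of 0.1 or more stayed past that limit, those of 28S-Gm4618 and 28S-Cm3869. Without PAF49delta1/2IDR-GFP 3 stayed, those of 28S-Gm4618, 28S-Um4620 and 28S-Am3785.

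**Figure D2:**
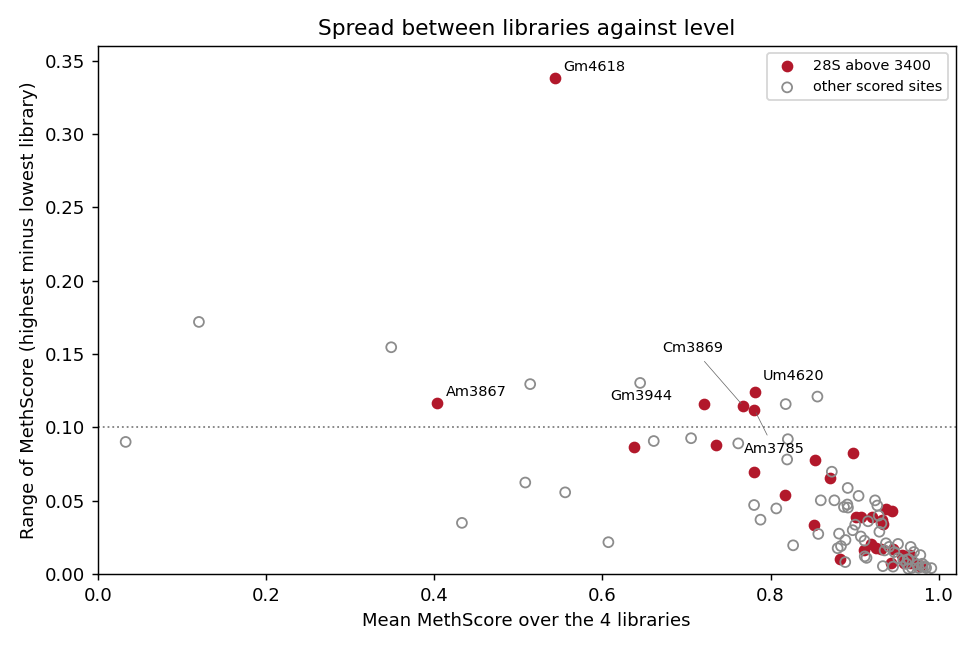
Range of the MethScore (highest minus lowest library) against the mean over the 4 libraries, with 1 point per site; filled points are the 38 members and open points the other 70 scored sites. The 6 named members lie on or above the dotted line at 0.1, none of them with a mean of 0.9 or above, and 28S-Gm4618 has the widest range (0.338) of all 108 sites.

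The widest range of any scored rRNA site was at 28S-Gm4618, the target of the SNORD91 guides. It scored 0.710 in PAF49deltaIDR-GFP, 0.516 in PAF49delta1/2IDR-GFP, 0.575 in PAF49-GFP and 0.372 in PAF49. PAF49deltaIDR-GFP was the highest library and PAF49 the lowest, with PAF49delta1/2IDR-GFP and PAF49-GFP between them and apart from each other. The range of 0.338 compares with 0.172 at the site next to it in that order, 18S-Um354. Leaving out PAF49 gave 0.194, leaving out PAF49deltaIDR-GFP gave 0.203, and quantile normalisation gave 0.254. As the full-length libraries differed at this position by 0.203, the distance of either deletion from PAF49-GFP (0.135 and -0.0589) was smaller than the distance between the full-length libraries.

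The nearby 28S-Um4620, a SNORD72 site, scored 0.844 in PAF49deltaIDR-GFP, 0.793 in PAF49delta1/2IDR-GFP, 0.769 in PAF49-GFP and 0.720 in PAF49. Its extreme libraries were those of 28S-Gm4618, while the middle ones stood in the opposite order. A further 3 nt on, 28S-Gm4623 of SNORD78 scored 0.964 in PAF49deltaIDR-GFP, 0.968 in PAF49delta1/2IDR-GFP, 0.972 in PAF49-GFP and 0.965 in PAF49. Along these 3 positions, which span 5 nt, the score went up from site to site in all 4 libraries and the range narrowed, with values of 0.338, 0.124 and 0.00833. 28S-Gm4637, the last member and a SNORD121 site 14 nt further on, scored 0.671 in PAF49deltaIDR-GFP, 0.635 in PAF49delta1/2IDR-GFP, 0.661 in PAF49-GFP and 0.584 in PAF49. PAF49 was again the lowest, as at 28S-Gm4618 and 28S-Um4620. It was also the lowest at 11 of the 20 sites with a range of 0.05 or more in the rest of the series. Means under 0.9 were dense among the last members by position, which do not reach the end of the molecule. They were found at 6 of the last 7 members, over 101 nt, beside 9 of the 31 before them. That boundary was chosen after the values were seen.

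The other members of this stretch with a mean under 0.9 were 28S-Cm4536, 28S-Am4571 and 28S-Am4590. 28S-Am4571 nevertheless passed 0.9 in PAF49deltaIDR-GFP and PAF49-GFP. 28S-Cm4536, a SNORD35 site, scored 0.803 in PAF49deltaIDR-GFP, 0.867 in PAF49delta1/2IDR-GFP, 0.881 in PAF49-GFP and 0.861 in PAF49. At 28S-Am4571, guided by SNORD63, the scores were 0.941 in PAF49deltaIDR-GFP, 0.871 in PAF49delta1/2IDR-GFP, 0.922 in PAF49-GFP and 0.859 in PAF49. 28S-Am4590 of SNORD119 scored 0.788 in PAF49deltaIDR-GFP, 0.842 in PAF49delta1/2IDR-GFP, 0.830 in PAF49-GFP and 0.811 in PAF49. PAF49deltaIDR-GFP was the lowest library at 28S-Cm4536 and 28S-Am4590 and the highest at 28S-Am4571, so these 3 sites did not move one way.

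28S-Am3867 was the lowest member, with a mean of 0.403. It scored 0.335 in PAF49deltaIDR-GFP, 0.452 in PAF49delta1/2IDR-GFP, 0.417 in PAF49-GFP and 0.408 in PAF49. No library reached 0.5 at this site, and it ranked last of the 38 in every library but PAF49, where 28S-Gm4618 was lower. Its neighbour 2 nt on, 28S-Cm3869 of SNORD92, scored 0.756 in PAF49deltaIDR-GFP, 0.830 in PAF49delta1/2IDR-GFP, 0.716 in PAF49-GFP and 0.769 in PAF49. Within each library 28S-Cm3869 stood above 28S-Am3867, by 0.299 to 0.421. PAF49delta1/2IDR-GFP was the highest library at both, but the lowest was PAF49deltaIDR-GFP at 28S-Am3867 and PAF49-GFP at 28S-Cm3869.

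28S-Gm3944, the SNORD111 site, scored 0.666 in PAF49deltaIDR-GFP, 0.782 in PAF49delta1/2IDR-GFP, 0.689 in PAF49-GFP and 0.748 in PAF49. One library of each kind was high and the other low, so deletion and full-length libraries overlapped. 28S-Gm4042 of SNORD102 scored 0.792 in PAF49deltaIDR-GFP, 0.733 in PAF49delta1/2IDR-GFP, 0.704 in PAF49-GFP and 0.711 in PAF49. Here both deletions stood above both full-length libraries, by at least 0.0218. The same held at 28S-Gm3744 of SNORD87, with 0.80 in PAF49deltaIDR-GFP, 0.808 in PAF49delta1/2IDR-GFP, 0.774 in PAF49-GFP and 0.738 in PAF49, a gap of 0.0254.

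Close neighbours, meaning another scored site within 10 nt, were present for 18 of the 38 members (55 of 108 sites in the series). They formed 7 runs of 2 to 4 sites with 11 steps between consecutive sites. At 8 of these 11 steps the scores of the neighbouring sites did not overlap over the 4 libraries. Counts of steps were not made for the 22 runs of the whole series, so they cannot be called particular to this part. The library that scored highest was the same at both sites of 4 steps, and the lowest was the same at 3. Whether a methyl group at one position enters the score of the next is not stated in the sources used here, and its part in these values was not tested.

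**Figure D3:**
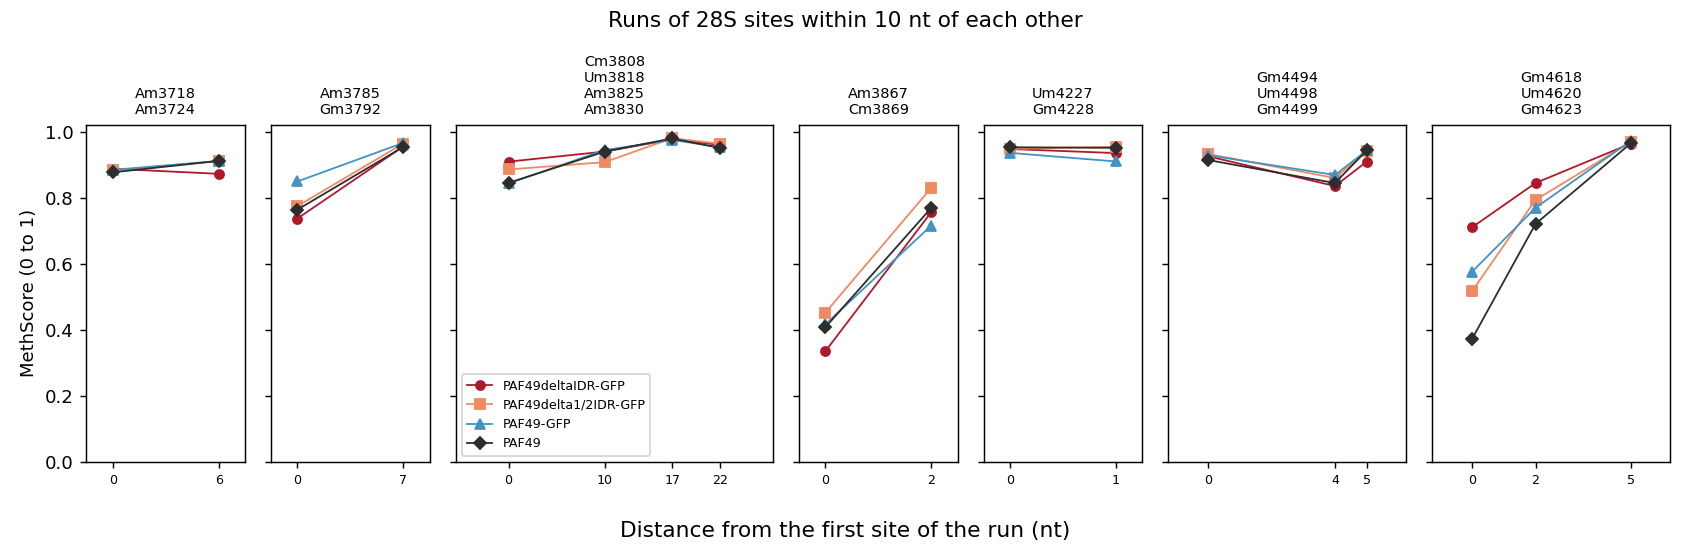
MethScore (0 to 1) in the 7 runs of members within 10 nt of each other, against distance from the first site of the run in nt; each line joins the sites of 1 library. Lines stay nearly flat at 28S-Um4227 and 28S-Gm4228, and climb in every library from 28S-Am3867 to 28S-Cm3869 (mean step 0.365) and from 28S-Gm4618 through 28S-Um4620 to 28S-Gm4623 (mean steps 0.238 and 0.185).

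The adjacent pair 28S-Um4498 and 28S-Gm4499 lies in the A loop, which binds the end of the incoming tRNA. In yeast, the guanosine at this place is methylated by Spb1, an enzyme that works without a guide. 28S-Um4498 scored 0.835 in PAF49deltaIDR-GFP, 0.859 in PAF49delta1/2IDR-GFP, 0.869 in PAF49-GFP and 0.844 in PAF49. 28S-Gm4499 scored 0.909 in PAF49deltaIDR-GFP, 0.940 in PAF49delta1/2IDR-GFP, 0.943 in PAF49-GFP and 0.943 in PAF49. The guanosine stood above the uridine in all 4 libraries, by 0.0742 to 0.0993, and PAF49deltaIDR-GFP was the lowest library at both. 28S-Gm4494, the SNORD69 site 4 nt before the pair, scored 0.925 in PAF49deltaIDR-GFP, 0.932 in PAF49delta1/2IDR-GFP, 0.928 in PAF49-GFP and 0.914 in PAF49. 28S-Um4498 minus 28S-Gm4494 ran from -0.0904 to -0.0595 over the libraries, so the uridine was the lowest of these 3 throughout.

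The other adjacent pair, 28S-Um4227 and 28S-Gm4228, showed no such step. 28S-Um4227 scored 0.947 in PAF49deltaIDR-GFP, 0.948 in PAF49delta1/2IDR-GFP, 0.935 in PAF49-GFP and 0.953 in PAF49. 28S-Gm4228, a SNORD58 site, scored 0.935 in PAF49deltaIDR-GFP, 0.954 in PAF49delta1/2IDR-GFP, 0.909 in PAF49-GFP and 0.951 in PAF49. PAF49-GFP was the lowest library at both positions, and the mean step between them was -0.00851, with the guanosine lower in 3 of the 4 libraries.

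In the run of 4 sites, 28S-Cm3808 had the lowest mean, 0.871. It scored 0.909 in PAF49deltaIDR-GFP, 0.885 in PAF49delta1/2IDR-GFP, 0.843 in PAF49-GFP and 0.845 in PAF49. Both deletions stood above both full-length libraries by 0.0408, the widest such gap among the members. 28S-Um3818 scored 0.940 in PAF49deltaIDR-GFP, 0.907 in PAF49delta1/2IDR-GFP, 0.944 in PAF49-GFP and 0.939 in PAF49, with 1 library apart from the rest. 28S-Am3825, described above, followed 7 nt on. 28S-Am3830 of SNORD79 scored 0.960 in PAF49deltaIDR-GFP, 0.963 in PAF49delta1/2IDR-GFP, 0.953 in PAF49-GFP and 0.95 in PAF49.

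The remaining runs were pairs. At 28S-Am3785, the target of the SNORD15 guides, the scores were 0.737 in PAF49deltaIDR-GFP, 0.774 in PAF49delta1/2IDR-GFP, 0.849 in PAF49-GFP and 0.764 in PAF49. PAF49-GFP stood alone at the top, and without it the range was 0.0374 in place of 0.112. 28S-Gm3792, 7 nt on, scored 0.955 in PAF49deltaIDR-GFP, 0.964 in PAF49delta1/2IDR-GFP, 0.966 in PAF49-GFP and 0.953 in PAF49, with every library above every score of 28S-Am3785. 28S-Am3724, a SNORD36 site 6 nt after 28S-Am3718, scored 0.872 in PAF49deltaIDR-GFP, while PAF49delta1/2IDR-GFP, PAF49-GFP and PAF49 all scored 0.911. Of the 6 members with a range of 0.1 or more, 5 had a close neighbour. That is 5 of 18 members with and 1 of 20 without one, beside 7 of 55 and 5 of 53 over all sites, and 2 of 18 and 2 of 11 in the 28S positions to 3400.

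The comparisons between libraries counted members that differed by 0.1 or more. Comparisons that share a library are not independent, and PAF49-GFP takes part in 3 of the 4. In PAF49deltaIDR-GFP against PAF49-GFP, 1 member was higher (2.63%, beside 2.78% of all sites) and 1 lower (2.63%, beside 1.85%). 28S-Gm4618 was the higher one, with a difference of 0.135, and 28S-Am3785 the lower, with -0.112. Differences of 0.05 to 0.1 were found at 28S-Gm4042 (0.0878), 28S-Um4620 (0.0750) and 28S-Cm3808 (0.0658) upwards, and at 28S-Am3867 (-0.0814) and 28S-Cm4536 (-0.0775) downwards. With PAF49 in place of PAF49-GFP, 28S-Am3785 differed by -0.0268 only, 28S-Gm4618 by 0.338 and 28S-Um4620 by 0.124. The median difference from PAF49-GFP was 0.00120 over the members and 0.00310 over all sites.

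In PAF49delta1/2IDR-GFP against PAF49-GFP, 1 member was higher by 0.1 (2.63%, beside 2.78% of all sites) and 0 were lower (0.926% of all sites). The higher one was 28S-Cm3869, by 0.114, and 28S-Gm3944 followed with 0.0930. The lowest were 28S-Am3785 (-0.0748), 28S-Gm4618 (-0.0589) and 28S-Am4571 (-0.0519). Against PAF49, 28S-Cm3869 differed by 0.0609 and 28S-Gm4618 by 0.144. Quantile normalisation changed the differences from PAF49-GFP to 0.0619 at 28S-Cm3869 and to -0.110 at 28S-Am3785. The median difference was 0.00363 over the members and 0.00400 over all sites.

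Between the deletions, PAF49deltaIDR-GFP was higher than PAF49delta1/2IDR-GFP by 0.1 at 1 member (2.63%, beside 1.85% of all sites) and lower at 2 (5.26%, beside 1.85%). 28S-Gm4618 was higher by 0.194, and 28S-Am3867 and 28S-Gm3944 were lower, with differences of -0.117 and -0.116. These were the only sites of the series lower by that much in this comparison. PAF49deltaIDR-GFP was lower at 25 of the 38 members and higher at 13, with a median difference of -0.00539. Over all sites, members included, it was lower at 59 and higher at 49, with a median of -0.00287. In the rest of the series it was lower at 34 and higher at 36, with a median of 0.000856. These counts were not repeated under another scaling.

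PAF49-GFP, set against PAF49, was higher by 0.1 at 1 member (2.63%, beside 1.85% of all sites) and lower at 0 (0% of all sites). This was 28S-Gm4618, with 0.203. The next differences were 0.0854 at 28S-Am3785, 0.0770 at 28S-Gm4637 and 0.0637 at 28S-Am4571, and on the lower side -0.0592 at 28S-Gm3944 and -0.0536 at 28S-Cm3869. The mean size of the difference over the members was 0.0249 for PAF49-GFP against PAF49. It was 0.0284 for PAF49deltaIDR-GFP and 0.0234 for PAF49delta1/2IDR-GFP against PAF49-GFP, and 0.0322 between the deletions. The largest and smallest mean sizes of any pair of libraries were those against PAF49: 0.0364 for PAF49deltaIDR-GFP and 0.0218 for PAF49delta1/2IDR-GFP. The same pairs were the extremes in the rest of the series, with 0.0272 and 0.0171. By median size over the members, at 0.0121 and 0.0111, neither pair was an extreme. The largest median was that between the deletions, and the smallest that of PAF49-GFP against PAF49. Means of these pairs without 28S-Gm4618, which differed by 0.338 and 0.144, were not computed. That PAF49delta1/2IDR-GFP lay nearer to PAF49-GFP than PAF49 did rested on 28S-Gm4618. Without that site, left out after the values were seen, the means were 0.0201 for PAF49-GFP against PAF49, 0.0256 for PAF49deltaIDR-GFP and 0.0225 for PAF49delta1/2IDR-GFP against PAF49-GFP, and 0.0278 between the deletions. The median sizes over all 38 members were 0.0107, 0.0134, 0.0122 and 0.0191 in the same order.

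**Figure D4:**
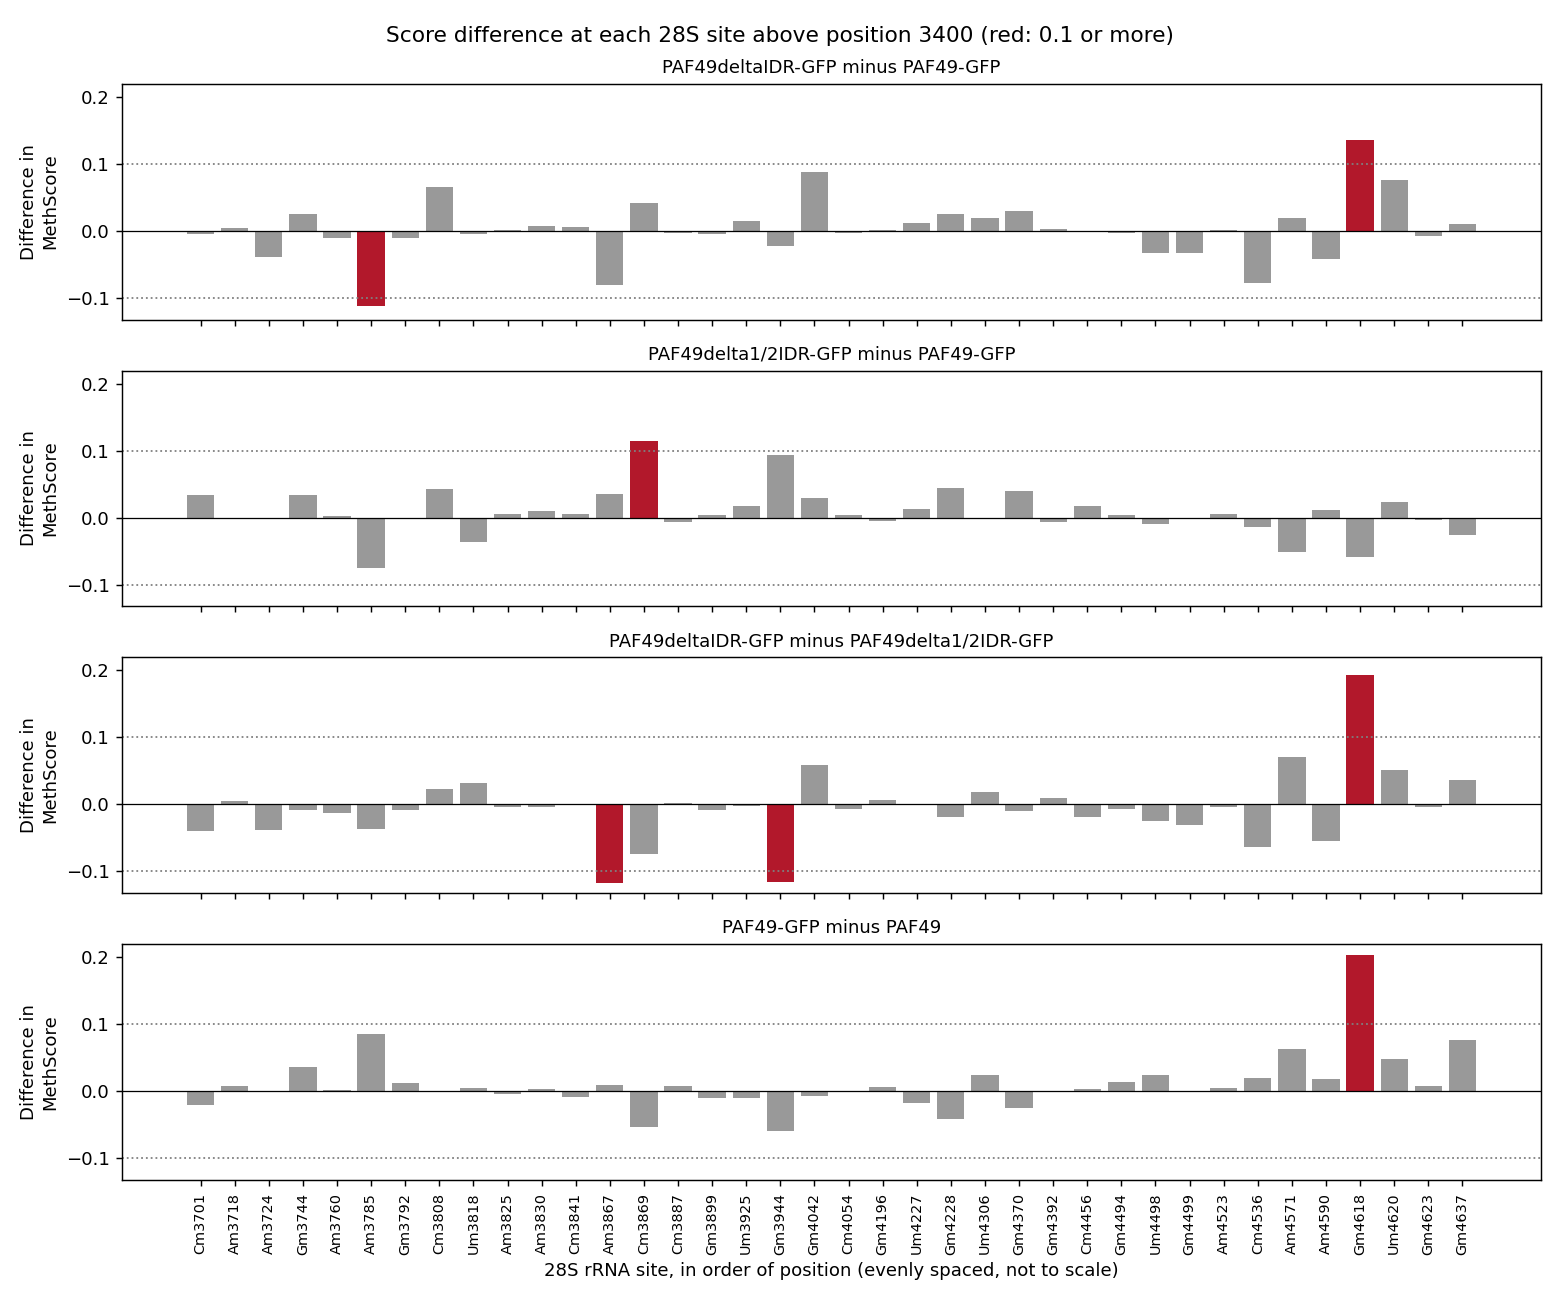
Difference in MethScore at each of the 38 members in order of position for the 4 comparisons, each panel titled with its direction; bars in red reach 0.1 (dotted lines) in either direction. 28S-Gm4618 is red in 3 of the 4 panels, including PAF49-GFP minus PAF49 (0.203), and most bars stay close to 0.

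With no minimum gap, both deletion libraries lay above both full-length libraries at 8 of the 38 members (21.1%, beside 25% of all sites) and below at 2 (5.26%, beside 5.56%). This split rested on scaling: it was 7 above and 10 below with the libraries shifted to one median, and 4 and 7 after quantile normalisation. A gap of 0.02 or more upwards was found at 4 members (10.5%, beside 7.41% of all sites), 28S-Cm3808, 28S-Gm3744, 28S-Um4620 and 28S-Gm4042, and downwards at 0 (0.926% of all sites). After the shift it was 0.0341 at 28S-Cm3808, 0.0219 at 28S-Gm3744, 0.0178 at 28S-Um4620 and 0.0151 at 28S-Gm4042. After quantile normalisation 28S-Cm3808 kept 0.0238 and 28S-Gm3744 kept 0.00871, while the deletions no longer lay above both full-length libraries at 28S-Um4620 and 28S-Gm4042. The smaller gaps upwards were at 28S-Am3830, 28S-Gm4370, 28S-Um3925 and 28S-Am4523, from 0.00167 to 0.00647, and the 2 sites below were 28S-Gm4499 (-0.00261) and 28S-Am3724 (-0.000424).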

How the data were processed

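The authors deposited 1 MethScore per rRNA position and library, treated here as a fraction because all values lie from 0 to below 1, and headed raw data per the file headers. Among tools, Trimmomatic 0.36 and Bowtie2 2.3.3.1 are listed, per the submitters' processing notes. Not given in the sources used here are the rRNA reference, the formula of the score, its window, any scaling between libraries and the depth. The 4 fold-change columns were not used.

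Columns were matched to samples by title, and scores were used as deposited, with Python 3.11.15, pandas 2.3.3 and numpy 2.4.6. Means, ranges, differences, counts past 0.1 and neighbours within 10 nt were computed, after a check on a simulated table. With 1 library per group no test was made. All members are accounted for. Those named with each library's score have a mean under 0.9, a range of 0.05 or more, a neighbour within 10 nt, a difference past 0.1, or are among the 3 highest or 3 most stable. Members and lists were chosen with earlier results of these data known. Alternatives were other thresholds and windows, a shift of each library to one median, quantile normalisation, the log2 odds scale, PAF49 as control, and leaving out each library.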

Additional observations from a re-analysis of the deposited data

How the results depend on the processing

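No paired analysis was possible because each group has 1 library. At a threshold of 0.95, 10 members scored above it in all libraries, and 5 and 2 scored under 0.8 and 0.7 in all. A range of 0.05 was reached by 13 members and 0.2 by 1; leaving out 1 library in turn gave 2 to 5 members past 0.1, in place of 6. A window of 20 nt gave 33 members with a neighbour. The counts of members with both deletions above or below were 4 and 0 at a minimum gap of 0.02, 4 and 7 after quantile normalisation, and 10 below after the shift. At 0.05, 6 members differed in PAF49-GFP minus PAF49, 5 in PAF49delta1/2IDR-GFP minus PAF49-GFP, 7 in PAF49deltaIDR-GFP minus PAF49-GFP and 9 between the deletions. At 0.2, 0 remained in the last 3 of these. Apart from those for a range of 0.05 and a gap of 0.02, the counts at alternative settings were not made over all sites. They therefore cannot be compared with the rest of the series. A log2 odds difference of 1 gave 1 member in PAF49deltaIDR-GFP minus PAF49-GFP, 28S-Am3785 (-1.01). 28S-Gm4618 did not reach 1 in that comparison (0.853). In PAF49delta1/2IDR-GFP minus PAF49-GFP, 28S-Gm4228 passed 1 (1.04) and 28S-Cm3869 did not (0.957). Between the deletions, 28S-Am4571 (1.25) and 28S-Gm4618 (1.20) passed 1 upwards. The sites lower by 0.1 there, 28S-Am3867 (-0.709) and 28S-Gm3944 (-0.846), did not, which left 0 lower members on the log2 odds scale. In PAF49delta1/2IDR-GFP minus PAF49-GFP, quantile normalisation left 1 member past 0.1, but a lower one in place of a higher one. The shift left all 100 differences examined at single sites on their side of 0.1. It ended the upward gap at 28S-Am4523 and took those of 28S-Um4620 and 28S-Gm4042 under 0.02. Among those 100 differences, none of 0.1 or more reversed under either scaling. Reversal was not checked for the deletions against PAF49 or for sites outside the members. The unknown depth limits every value.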
